A study of Equus caballus with 20 samples.

Results

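The interferon regulatory factors are a family of transcription factors. The members described are the rows of the deposited table with the symbols IRF1, IRF2, IRF3, IRF4, IRF5, IRF7, IRF8 and IRF9, 8 of 26740 listed features. Each of the 8 also passed the filter on low values, which kept 14692 features. RNA had been sequenced from oviduct epithelium of Warmblood mares, taken 4 days after ovulation from the ampullary-isthmic junction, where the wide part of the tube narrows. The 20 libraries form 4 groups of 5 biological replicates: pregnant mares on the side of ovulation (ipsilateral, PI) and on the other side (contralateral, PC), and cyclic, non-pregnant mares on the same sides (CI and CC). A library is named by its group and replicate number. The labels do not say whether both oviducts of a number came from the same mare, and name no treatment.

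All family members share an amino-terminal DNA-binding domain with conserved tryptophans that recognises GAAA repeats. IRF3 and IRF7 are activated by phosphorylation when receptors sense viral nucleic acid, and they switch on the type I interferon genes. IRF9 joins STAT2 in ISGF3, the complex that carries the signal of type I interferon to its target genes, among which is IRF7 itself. IRF1 is induced by interferon gamma and activates antigen presentation genes, and IRF2 competes with it for the same sites. IRF4 and IRF8 are best known from lymphoid and myeloid cells, and IRF5 from macrophages and B cells. In the oviducts and uteri of several mammals, interferon-inducible genes are studied as a readout of the early embryo's signals to its mother.

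Library totals, recovered from the deposited values, ran from 2795168 to 10126484 reads. The limit that a count of 0 allows, 3 reads, equals 1.75 to 7.03 normalized counts depending on the library. In PI1, PI4 and CI3 a single unnamed feature took 14.4%, 27.8% and 15.4% of the total. Epithelial markers were abundant in every library: EPCAM ranged from 1115 to 2413 normalized counts, PAX8 from 1410 to 2491 and the ciliated cell regulator FOXJ1 from 2774 to 6344, whereas OVGP1, the oviduct glycoprotein, was at 0 to 15.4. RNA of other cells was present too, with PTPRC, a gene of all leukocytes, at 101 to 704 and the collagen gene COL1A1 at 75.9 to 1450. In such bulk samples fewer cells of a type and less RNA per cell cannot be told apart.

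IRF7, the inducible factor that amplifies interferon production, varied more than any other member. In PI its normalized counts were 1317, 108, 1105, 1324 and 54.3 in replicates 1 to 5. In PC they were 931, 103, 1628, 1202 and 99.8. Replicates 1, 3 and 4 were thus high in both oviducts of pregnant mares, and replicates 2 and 5 low in both. In CI the values were 499, 73.9, 166, 59.2 and 110, and in CC 94.9, 100.1, 155, 45.1 and 109. CI1 stood apart from the other cyclic libraries, which did not exceed 166. PI2, PI5, PC2 and PC5 lay within the range of the cyclic groups, so the groups overlapped on both sides. From CC4 to PC3 the level spanned 36.1-fold, and the SD of its log2 values over 20 libraries exceeded that of 99.9% of the features kept.

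**Figure D1:**
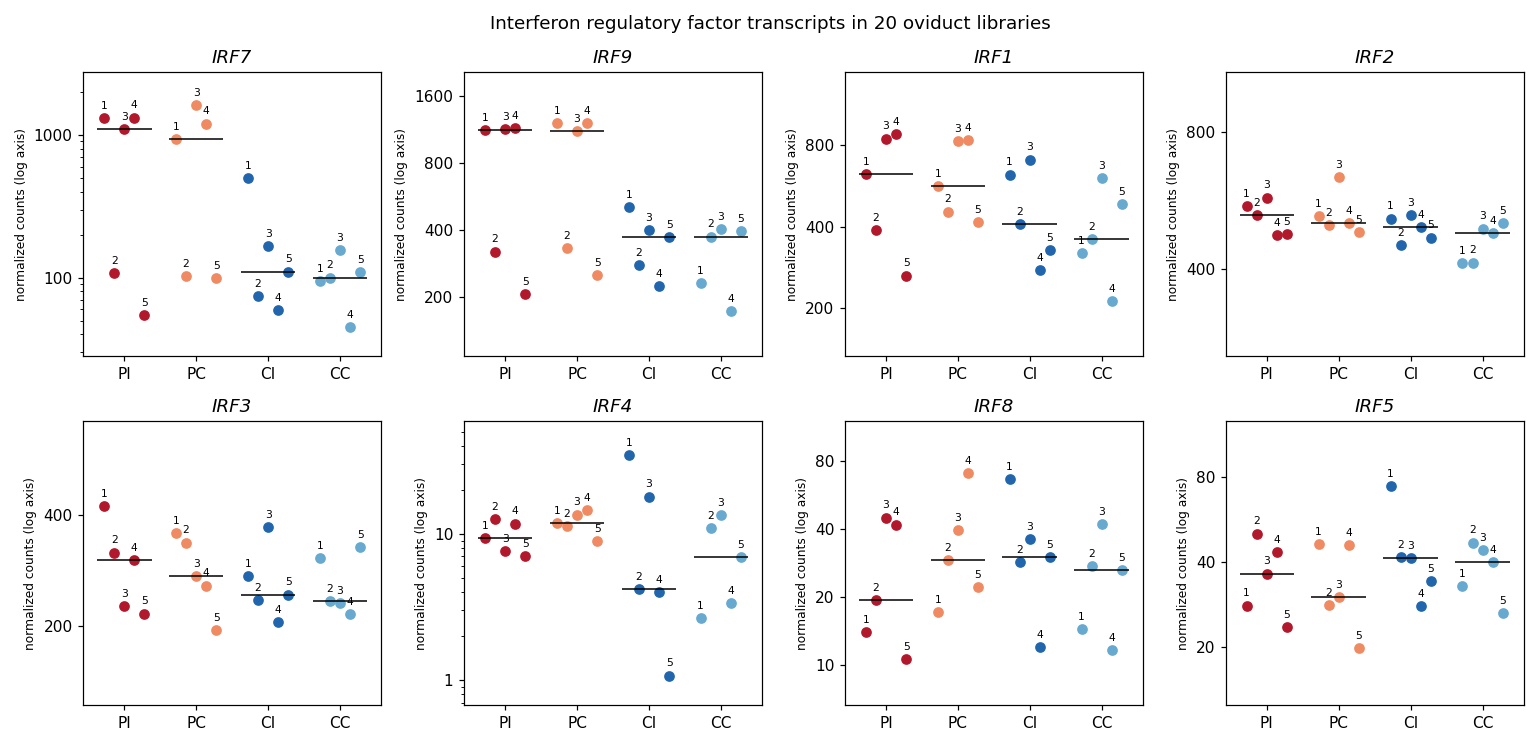
Normalized counts (log axis) of the 8 family members in PI, PC, CI and CC, with 1 point per library marked by its replicate number and a bar at each group's median. IRF7 and IRF9 were high in replicates 1, 3 and 4 of both pregnant groups, whereas IRF2 stayed between 412 and 638 in all libraries.

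IRF9, the DNA-binding subunit of ISGF3, split the libraries in the same way but over a narrower range. Its values were 1125, 320, 1137, 1147 and 207 in PI and 1208, 331, 1117, 1206 and 252 in PC. They were 506, 280, 399.8, 224 and 373 in CI and 232, 374, 404, 174 and 397 in CC. The 6 libraries with the most IRF7 were also the 6 with the most IRF9, and in them IRF9 lay within 1117 to 1208. The highest of the other 14 was CI1, at 506. In the ratio of IRF7 to IRF9 the scaling of a library cancels, but gene length does not. This ratio can be set between libraries but is not one of transcript numbers. Its medians were 0.97 in PI, 0.77 in PC, 0.30 in CI and 0.28 in CC. It ran from 0.26 in PI5 to 1.17 in PI1 and from 0.31 in PC2 to 1.46 in PC3. In the cyclic groups it lay between 0.26 and 0.41, except for 0.99 in CI1.

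IRF1, the activator of the antigen presentation programme, was graded rather than split. Its values were 623, 387, 847, 879 and 263 in PI and 565, 454, 831, 835 and 415 in PC. In CI they were 623, 407, 708, 275 and 327, and in CC 319, 359, 605, 212 and 484. PI4, PI3, PC4 and PC3 were the 4 highest libraries, but CI3 came next and CI1 equalled PI1. Of the 6 libraries with the most IRF7, 5 were among the 6 with the most IRF1. IRF2, its competitor, was the most even member, from 412 in CC1 to 638 in PC3, a 1.55-fold range. Only 1.91% of the features kept varied less than IRF2 on the log2 scale. Group means of IRF2 were 521 ± 44.0 in PI, 530 ± 62.0 in PC, 492 ± 31.4 in CI and 460 ± 44.3 in CC (SD, n = 5).

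IRF3, the constitutive sensor-activated factor, ranged 2.16-fold, from 195 in PC5 to 422 in PI1. Its means were 296 ± 82.8 in PI, 284 ± 64.7 in PC, 265 ± 63.8 in CI and 263 ± 50.4 in CC (SD, n = 5). PI3 held much IRF7 but only 227 of IRF3, and CI3, low in IRF7, had 371, so the order of libraries differed. In PI1 and CI3, the highest in IRF3, the unnamed feature took 14.4% and 15.4% of the total. Over 20 libraries IRF3 had an r of 0.58 with that feature's share and −0.43 with log2 total reads. For IRF7 these were 0.43 and −0.07. The part of the share and of depth in the IRF3 values was not tested.

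The members of the blood lineages were low. IRF4, a factor of activated lymphocytes and plasma cells, had 1 to 36 reads per library, and 3 libraries (CI5, CC1 and CC4) had no more than 3 reads. Its highest value was 34.8 normalized counts in CI1, and the pregnant libraries lay between 7.09 and 14.6. IRF8, a factor of myeloid and B cells, ranged from 10.6 in PI5 to 70.7 in PC4, with CI1 next at 66.6. PI1 and PC1, libraries with much IRF7, had only 14.1 and 17.2 of IRF8. IRF5, a factor of macrophage activation, was lowest in PC5 and highest, at 74.4, in CI1. CI1 was therefore the highest library for IRF4 and IRF5 and the second highest for IRF8.

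Leukocyte RNA differed between these libraries. Of 16 listed pan-leukocyte, T cell and NK cell markers 15 were found, and their summed normalized counts were 423 to 1238 in PI, 636 to 2204 in PC, 351 to 1476 in CI and 402 to 777 in CC. PC4 had the highest sum and CI1 the next. All 16 myeloid and dendritic markers were found, with sums of 579 to 1751 in PI, 770 to 2629 in PC, 766 to 1787 in CI and 847 to 1665 in CC. The mean log2 level of the 14 myeloid genes kept correlated with IRF8 over the 20 libraries (r = 0.82), and less with IRF5 (r = 0.56) and IRF4 (r = 0.31). Of 11 B and plasma cell markers 10 were found, summing to 845 to 1730 over all libraries. Their defining genes were near 0, with MS4A1 at 0 in 19 of 20 libraries, PAX5 in 17 and CD79A in 10. The dendritic cell receptor CLEC9A was at 0 in 18. The part of these cells in the levels of IRF4, IRF5 and IRF8 was not tested.

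The first comparison asked how the epithelium differs between pregnant and cyclic mares, on each side. On the side of ovulation mean IRF7 was 782 ± 646 in the pregnant and 182 ± 182 in the cyclic group (normalized counts, SD, n = 5), and the log2 values differed by 1.61 ± 0.91 (SE). IRF9 averaged 787 ± 480.0 and 356 ± 110, a log2 difference of 0.87 ± 0.50. Away from ovulation IRF7 averaged 793 ± 678 in PC and 101 ± 39.4 in CC (2.23 ± 0.91), and IRF9 averaged 823 ± 487 and 316 ± 106 (1.15 ± 0.50). These means describe no typical library of the pregnant groups, since 3 of 5 values lay above and 2 far below them. IRF1 differed by 0.31 ± 0.35 on the side of ovulation and by 0.67 ± 0.35 on the other, and IRF2 by 0.08 ± 0.11 and 0.20 ± 0.11. IRF3 differed by 0.15 ± 0.21 and 0.10 ± 0.21. IRF5 had log2 differences of −0.22 ± 0.28 and −0.18 ± 0.28.

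IRF4 had log2 differences of 0.18 ± 0.46 and 0.63 ± 0.46, on the side of ovulation and away from it, and IRF8 of −0.38 ± 0.45 and 0.46 ± 0.45. For IRF4 the ipsilateral mean on the linear scale had the other sign, 9.70 ± 2.45 in PI against 12.4 ± 14.1 in CI, with CI1 alone at 34.8.

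In the fit across all features (limma, Benjamini-Hochberg) 0 of 8 members passed on either side, beside 0.0% of all features, with adjusted p = 0.999 for IRF7 in PI against CI and 1.0 in PC against CC. Without adjustment, 0 of 8 members were under 0.05 in PI against CI, beside 3.5% of all features (1.5% in the higher direction). In PC against CC these were 2 of 8, IRF7 and IRF9, both higher, beside 4.55% of all features (2.75% higher). Their unadjusted limma p-values were 0.0232 and 0.0323. Log2 differences were above 0 in 6 of 8 members ipsilaterally (48.1% of all features) and in 7 of 8 contralaterally (51.8%). Their medians were 0.16 and 0.55, those of all features −0.01 and 0.01. No member had groups without overlap, against 0.592% and 0.585% of all features. The unadjusted contralateral count fell from 2 to 0 without PC1, PC3, PC4 or CC4 and to 1 without CC1. It rose to 3, with IRF1, without PI5, PC5 or CC3 or with the replicate number as a block. Of all 14692 features 669 were under 0.05 in the main fit, and 617, 613, 355 and 687 without PC1, PC3, PC4 and CC4. Without CC1 these were 485, without PI5, PC5 and CC3 724, 843 and 595, and with the block 975. The ipsilateral count rose from 0 to 2, IRF7 and IRF9, without PI2 or PI5 and with edgeR or DESeq2. It rose to 1, IRF7, without CI1 or with the block. All features under 0.05 numbered 514 in the main fit, 715 and 704 without PI2 and PI5, 494 by edgeR and 560 by DESeq2. They numbered 508 without CI1 and 871 with the block. For pregnant against cyclic this block joined libraries of 1 number across the statuses, a match that the labels do not give. With log2 total reads as a covariate the contralateral pair was IRF2 and IRF7, beside 1100 of all features. With the mean log2 level of the 14 leukocyte genes kept as a covariate neither IRF7 nor IRF9 was under 0.05. The counts were then 1 ipsilaterally (IRF8) and 1 contralaterally (IRF5), beside 612 and 443 of all features. Without PI1, PI4 and CI3 the ipsilateral IRF7 difference was 0.58 ± 1.05. With the leukocyte covariate the IRF7 differences were 0.84 ± 0.85 and 1.04 ± 0.91, those of IRF9 0.45 ± 0.47 and 0.51 ± 0.51, and the contralateral difference of IRF8 turned to −0.24. Pan-leukocyte, T and NK markers were themselves mostly higher in pregnant libraries by log2 difference. This held for 13 of 14 genes ipsilaterally (48.1% of all features) and 14 of 14 contralaterally (51.8%), with medians of 0.72 and 0.91. Of 14 myeloid and dendritic genes 4 were higher ipsilaterally and 10 contralaterally (medians −0.05 and 0.15). Of 5 B and plasma cell genes 1 was higher on each side. The part of these cells in the family's differences was not tested further.

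**Figure D2:**
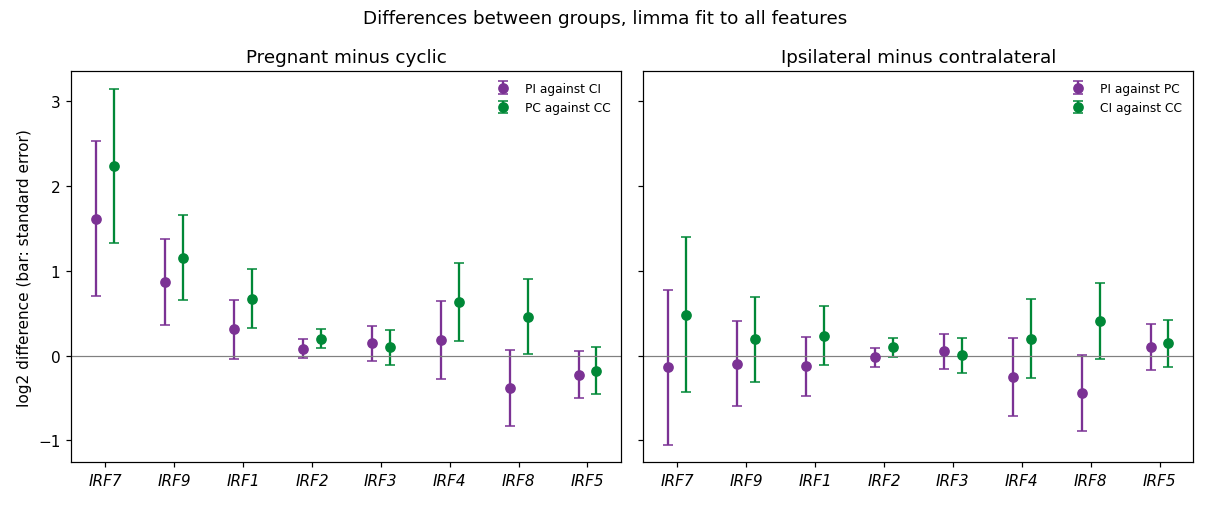
Log2 differences with standard errors for the 8 members, pregnant minus cyclic at left and ipsilateral minus contralateral at right, from the limma fit to all 14692 features. IRF7 and IRF9 had the largest pregnancy differences of the family, 1.61 and 0.87 ipsilaterally and 2.23 and 1.15 contralaterally, and none of the 8 members passed.

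The second comparison set the oviduct beside the ovulating ovary against the other one. In pregnant mares IRF7 differed by −0.14 ± 0.91 (log2, SE), IRF9 by −0.10 ± 0.50 and IRF1 by −0.13 ± 0.35, and IRF8 had the greatest distance from 0 at −0.44 ± 0.45. The libraries of a number deviated together in pregnant mares, so the values can be read number by number. The log2 difference of IRF7 was 0.50, 0.07, −0.56, 0.14 and −0.84 in replicates 1 to 5, and that of IRF9 −0.10, −0.05, 0.03, −0.07 and −0.28. IRF9 thus stayed within 0.28 log2 units between the 2 oviducts of each number, although numbers differed by more than 2 log2 units. With the replicate number as a block the IRF7 difference was −0.14 ± 0.31 and that of IRF9 −0.10 ± 0.17. Without PI1, PI4 and CI3 that of IRF7 was −1.25 ± 1.01, and leaving out single libraries moved it between −0.68 and 0.58. In cyclic mares IRF7 differed by 0.48 ± 0.91, IRF9 by 0.19 ± 0.50 and IRF8 by 0.41 ± 0.45. Replicate 1 alone gave log2 differences of 2.36 for IRF7, 1.12 for IRF9, 1.99 for IRF8 and 2.74 for IRF4, the latter with only 2 reads in CC1.

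By limma 0 of 8 members passed in either comparison of sides, beside 0.0% of all features. Without adjustment 0 of 8 were again under 0.05, against 0.762% of all features in pregnant (0.361% higher) and 0.286% in cyclic mares (0.177% higher). These shares come from the fit without pairs. With the block 0 of 8 were under 0.05 in either comparison, beside 464 of 14692 features in pregnant and 240 in cyclic mares. Log2 differences were above 0 in 2 of 8 members in pregnant mares (44.6% of all features) and in 8 of 8 in cyclic mares (51.4%). The pregnant count rose to 6 without PI5, 5 without PC3 and 4 without PC1 or PC4, was 3 without PI2 or PI4 and 1 without PI1, and fell to 0 without PC5. In these settings 6558 (without PC5) to 6775 (without PC4) of 14692 features were above 0. The cyclic count was 5 without CI1, beside 7352 of 14692 features, and the cyclic IRF7 difference was then 0.01. That count was 6 without CI3 or CC4, beside 8009 and 6946 features. It was 7 without CC2 or CC3, beside 7804 and 7795. All members overlapped between sides, as did all but 0.136% and 0.0681% of features. The pregnancy difference did not differ detectably between sides: the interaction was −0.62 ± 1.29 for IRF7, −0.29 ± 0.71 for IRF9 and −0.84 ± 0.63 for IRF8 (log2, SE), with 0 of 8 members passing (0.0% of all features). Without adjustment 0 of 8 were under 0.05 (0.32% of all features, 0.184% higher), and 1 of 8 interactions was above 0 (43.4%). With the replicate number as a block, which here also paired cyclic libraries, the interaction was −0.62 ± 0.44 for IRF7 and −0.29 ± 0.24 for IRF9. Without adjustment 0 of 8 were then under 0.05, beside 267 of 14692 features. By group means the order was PC, PI, CI, CC for IRF7, IRF9, IRF1 and IRF2, and PI, PC, CI, CC for IRF3. It was PC, CI, PI, CC for IRF8, CI, PC, PI, CC for IRF4 and CI, CC, PI, PC for IRF5. Of the neighbours in these orders, those compared by a test did not pass. PC with CI and PI with CC were not tested.

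Likeness to IRF7 was described by correlations of log2 values over libraries, with no test. Libraries of one number are not independent in pregnant mares, and all share differences in depth and leukocyte RNA. Averaged over the 2 libraries of a status and number, IRF7 fell into separate clusters, although cyclic libraries of a number were not taken as paired. The mean of cyclic 1, at 7.79 on the log2 scale, joined CI1 at 8.97 with CC1 at 6.61. The 10 means spanned 4.62 log2 units. The largest gap, 2.32, within which CI1 by itself lay, set pregnant 1, 3 and 4 apart from the rest and was 50.3% of that span. A correlation over all libraries therefore mostly records that gap, and serves here only to order the members. IRF9 (r = 0.97, Spearman rho = 0.94) and IRF1 (r = 0.87, rho = 0.91) came first. Then came IRF2 (0.62, 0.60), IRF8 (0.53, 0.65), IRF4 (0.50, 0.63), IRF3 (0.40, 0.51) and IRF5 (0.26, 0.29). Among all features, 0.03% had an r as high as that of IRF9, 0.54% as high as IRF1, 3.74% as high as IRF2 and 20.4% as high as IRF5. An r of 0.8 or more was reached by 2 of the 7 members other than IRF7 and by 0.919% of all features.

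**Figure D3:**
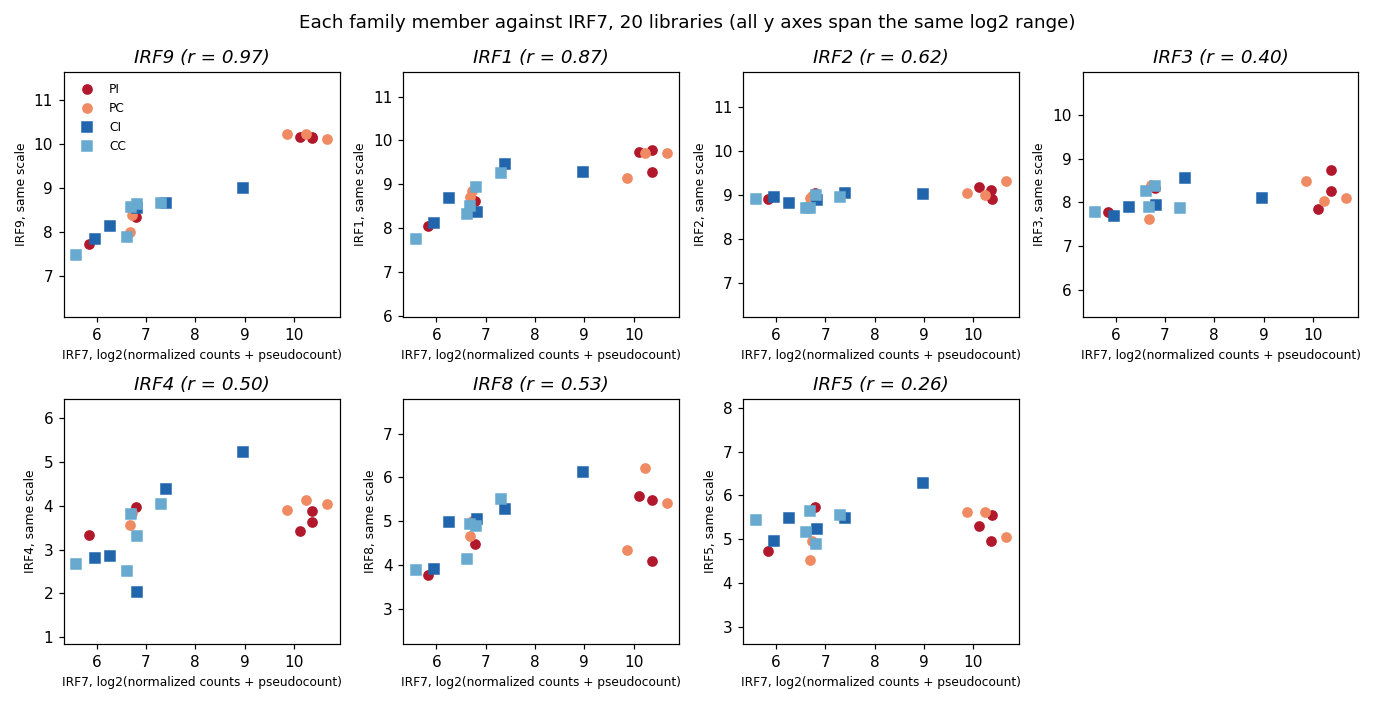
Each of the 7 other members (y) against IRF7 (x), both as log2 of normalized counts plus the pseudocount, with circles for pregnant and squares for cyclic libraries; all y axes span the same log2 range. Over the 7 means below the gap r was 0.80 for IRF9, 0.83 for IRF1, 0.86 for IRF8 and 0.04 for IRF2. Over the 10 cyclic libraries it was 0.40 for IRF2. The cyclic means join libraries that were not taken as paired.

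Within the 7 means on the lower side of the gap, IRF9 (r = 0.80) and IRF1 (r = 0.83) again went with IRF7, and so did IRF8 (r = 0.86) and IRF3 (r = 0.74). IRF4 (r = 0.66) and IRF5 (r = 0.61) followed, and IRF2 (r = 0.04) did not. These values rest in part on cyclic means, which join libraries that were not taken as paired. Above the gap the IRF8 means were uneven: those of pregnant 3 and 4, at 5.50 and 5.85 on the log2 scale, were the highest of the 10, and that of pregnant 1, at 4.22, lay within the range of the low ones. The upper cluster, with 3 means, was too small for a value. The 2 means farthest from the median were those of pregnant 3 and 4, and without them r was 0.96 for IRF9, 0.84 for IRF3, 0.75 for IRF1, 0.53 for IRF2, 0.47 for IRF4, 0.29 for IRF5 and 0.05 for IRF8. In that setting pregnant 1 was the only mean above the gap, and IRF3 ranked above IRF1.

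The size of the movement also ordered the members, by slopes that like r mostly record the gap. For each log2 unit of IRF7 the fitted line over 20 libraries rose by 0.53 log2 units for IRF9, 0.30 for IRF1, 0.21 for IRF8 and 0.20 for IRF4. It rose by 0.07 for IRF3, 0.06 for IRF5 and 0.05 for IRF2. IRF2 therefore had the third highest r in the family and the smallest slope. By scaling to total reads without TMM its r was 0.35.

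Within the 10 pregnant libraries r was 0.99 for IRF9, 0.93 for IRF1, 0.54 for IRF2 and 0.54 for IRF8. Within the 10 cyclic ones it was 0.85 for IRF9, 0.80 for IRF1, 0.89 for IRF8, 0.81 for IRF4, 0.70 for IRF5, 0.44 for IRF3 and 0.40 for IRF2. CI1 bore on some of these: without it, chosen after the values were seen, r in the other 9 cyclic libraries was 0.21 for both IRF5 and IRF2. It was 0.61 for IRF4 and 0.62 for IRF3, against 0.85 for IRF8 and 0.89 for both IRF9 and IRF1. With the leukocyte score regressed out of both genes, r over 20 libraries was 0.95 for IRF9 and 0.77 for IRF1, but 0.24 for IRF8, 0.16 for IRF4 and 0.01 for IRF5. That score itself had an r of 0.67 with IRF7, 0.66 with IRF9 and 0.64 with IRF1.

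**Figure D4:**
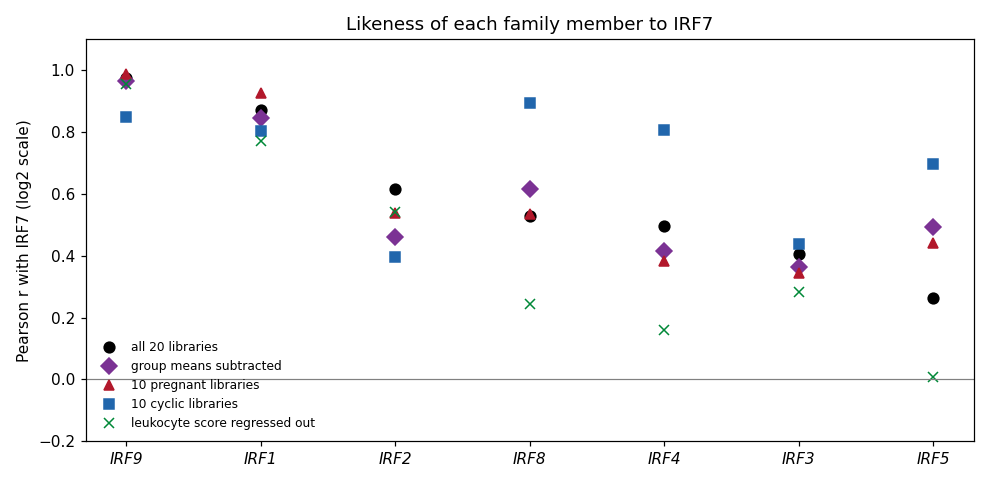
Pearson r with IRF7 for each other member over all 20 libraries, after subtracting group means, within pregnant and within cyclic libraries, and with the leukocyte score regressed out. IRF9 and IRF1 kept values of 0.77 or more in all 5 settings plotted, whereas those of IRF8, IRF4 and IRF5 ran from 0.89, 0.81 and 0.70 down to 0.24, 0.16 and 0.01.

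The genes whose pattern over 20 libraries was most like that of IRF7 were DHX58, EPSTI1 and RNF213 (r = 0.98 each), then ADAR and IRF9 (0.97 each), IFIT1 (0.97), OAS2 (0.97) and ISG15 (0.97). DHX58 is a regulator of RNA sensing, ADAR an RNA-editing enzyme, OAS2 a sensor of double-stranded RNA and IFIT1 a protein that binds viral RNA. IRF9 shared 2 of its 3 nearest genes with IRF7, DHX58 and RNF213 (0.98 each), the other being IRF7 itself. IRF1 was nearest to ETV7 (0.96) and APOL6 (0.95). IRF8 was nearest to TMEM176B (0.90), GBP6 (0.88) and HIST3H2BB (0.87).

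The genes nearest to IRF2 were TBC1D22B (0.78), ZDHHC23 (0.74) and NEB (0.74), and those nearest to IRF3 were CCDC157 (0.89), TTC34 (0.88) and DHX34 (0.88). For IRF4 they were ZNF831 (0.80), COL2A1 (0.79) and SHKBP1 (0.77), and for IRF5 PATL2 (0.80), IL21R (0.73) and NRROS (0.72).

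Genes of the pathway were taken from lists made from textbook knowledge. Their r with IRF7 over 20 libraries also mostly records the gap in IRF7, and serves only to order them. Of 9 interferon genes listed 3 were found and 1 passed the filter. IFNG, the interferon that induces IRF1, had at most 2 reads in any library and 0 in 16 of 20, and IFNE at most 7 reads. IFNK ranged from 8.77 to 60.2 normalized counts and had an r of −0.05 with IRF7. Of 15 receptor and JAK-STAT genes 10 were measured, and 1 of them, STAT2 (r = 0.96), reached an r of 0.9 with IRF7, as did 0.415% of all features. The other 9 did not exceed 0.46, with the receptor chain IFNAR1 lowest at −0.49. STAT2 averaged 785 ± 418 in PI, 922 ± 537 in PC, 487 ± 199 in CI and 449.9 ± 134 in CC, and IFNAR1 168 ± 41.4, 209 ± 53.2, 198 ± 49.1 and 209 ± 35.8 (SD, n = 5). STAT2, like IRF9 a subunit of ISGF3, thus ranked far above the measured receptor chains and JAK kinases by this r. Values within a status or below the gap were not computed for these genes.

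The sensors and kinases that activate IRF3 and IRF7 spread more widely. Of 22 listed 21 were measured, and 4 reached an r of 0.9: DHX58 (0.98), ZBP1 (0.96), IFIH1 (0.95) and DDX58 (0.93), all receptors or binders of nucleic acid. MAVS, the adaptor of the RNA sensors, was at −0.19, the kinase TBK1 at 0.66, TLR3 at 0.81 and TLR7 at 0.49. DDX58 averaged 413 ± 239 in PI and 252 ± 90.6 in CI, and 528 ± 328 in PC and 207 ± 49.4 in CC, whereas MAVS stayed between 173 and 190 on average in all 4 groups. Of 13 partners and modifiers of IRF proteins 10 were measured, and only TRIM21, a ubiquitin ligase that acts on several IRFs, reached 0.9 (0.95). IRF2BP2, a corepressor that binds IRF2, was at 0.12, with 922 to 1232 normalized counts in all libraries.

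Of 33 targets of ISGF3, 27 were measured and 21 had an r of 0.9 or more with IRF7, with a median of 0.94. The other 6 were PML (0.87), RTP4 (0.86), IFIT5 (0.85), RSAD2 (0.83), CMPK2 (0.68) and IFI27 (−0.06). By log2 difference 26 of 27 were higher in PI than in CI (median 1.00, beside 48.1% of all features) and 27 of 27 in PC than in CC (median 1.21, beside 51.8%). Without adjustment 7 and 20 were under 0.05, all higher, against 1.5% and 2.75% of all features in that direction, and 0 passed on either side. The antiviral GTPase MX1 averaged 3293 ± 2161 in PI and 974 ± 287 in CI, and ISG15, a ubiquitin-like modifier, 225 ± 187 in PC and 29.0 ± 12.1 in CC (SD, n = 5). Of 22 targets of IRF1 and interferon gamma 19 were measured, with a median r of 0.73 and 2 at 0.9 or more. PSMB10, a subunit of the immunoproteasome, was at 0.91 and CIITA, the regulator of MHC class II genes, at 0.90, the peptide transporter TAP1 at 0.88 and NLRC5, which regulates MHC class I, at 0.84. Of these 19, 15 were higher ipsilaterally (median 0.26, beside 48.1% of all features) and 18 contralaterally (median 0.83, beside 51.8%). Without adjustment 0 and 3 were under 0.05, the 3 all higher, against 1.5% and 2.75% of all features in that direction, and 0 passed.

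Of the 14 leukocyte markers kept, 0 reached an r of 0.9 with IRF7, and the median was 0.61, with PTPRC at 0.63 and CD3E at 0.48. The 14 myeloid genes had a median of 0.39, with CSF1R at 0.49, and the 8 epithelial genes one of −0.02, with EPCAM at −0.44 and PAX8 at −0.06. For all features it was −0.01.

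**Figure D5:**
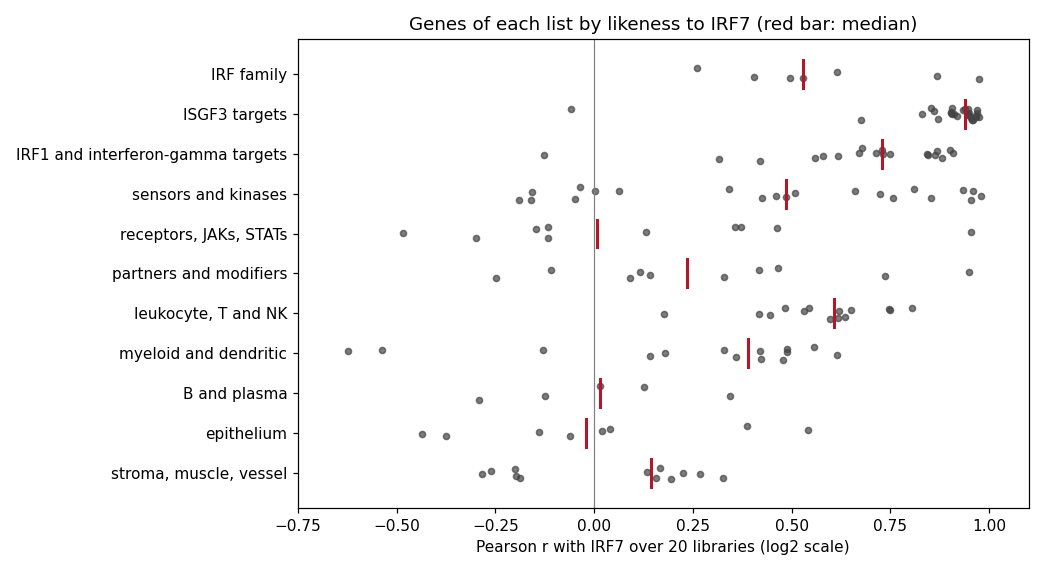
Pearson r with IRF7 over 20 libraries for each measured gene of 11 lists, with a red bar at each list's median. ISGF3 targets cluster near 0.94, IRF1 and interferon-gamma targets spread around 0.73, and the leukocyte, T and NK markers lie around 0.61, below 0.9.

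The measured genes beside the family members had r values with them between −0.74 and 0.30. In the order of genes on the RefSeq assembly TB-T2T, which may differ from the build used for counting, PHRF1 lies next to IRF7 and had an r of 0.30 with it, and SLC22A5 lies next to IRF1 and had one of −0.74. IRF3 overlaps BCL2L12 (r = 0.23) and IRF5 overlaps TNPO3 (r = 0.17). Whether reads were counted by strand is not given in the sources used here, so reads of these overlapping genes may have been exchanged with those of IRF3 and IRF5.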

How the data were processed

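Polyadenylated or rRNA-depleted RNA was sequenced in 20 libraries: the labels' protocols name a stranded total RNA kit with rRNA depletion, another label polyA RNA. CASAVA 1.8 is given in the submitters' processing notes. For aligner, counter, strand setting, build and filters, the entry is: not given in the sources used here. The authors deposited TMM-normalized counts per feature, a signal in which each library's reads are multiplied by 1 factor. Values were whole multiples of the smallest one in each column (100.0% within 0.01 reads), so reads were recovered.

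Features above 1 CPM in at least 5 libraries were kept. A single linear model per feature in limma 3.58.1 (R 4.3.3), with a mean for each of 4 groups, trend and robust moderation and 2-sided tests, was fitted to log2 of the deposited value plus 3.03 normalized counts (0.5 CPM) in all 20 libraries, with p adjusted over all features kept. Folds on this scale understate changes of low genes. P-values measure the spread between these libraries. Alternatives were edgeR (4.0.16) and DESeq2 (1.42.0) on recovered reads, other pseudocounts, filters and scaling, covariates, a replicate block and left-out libraries. The procedure was tested on simulated data.

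Deviations from group means correlated between the 2 libraries of a number at 0.53 to 0.70 in pregnant mares, which were taken as paired from the data, and at −0.04 to 0.68 in cyclic mares, which were not. The family and lists were chosen with earlier results of these data known. Named besides the family were the 8 genes most correlated with IRF7, up to 3 of the most correlated with each other member and fixed examples of each list; IFNB1, SPI1 and GBP1 were not found under those symbols. Any further gene in the text was picked with its values in view. No sequences are printed, since none are in the files used here. Some results are not reported here.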

Additional observations from a re-analysis of the deposited data

Results flagged for a closer look

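In the 32 sets of 5 libraries tested (8 members in 4 groups), 2 held a library far from the other 4 relative to the range of its group, and chance flags about 1 in 20 such sets. IRF7 in CI1 was at 499 normalized counts, with the next library of its group, CI3, at 166. IRF2 in PC3 was at 638, with the next, PC1, at 522.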

How the results depend on the processing

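The count of features passing in PC against CC, 0 by limma, was 1 on CPM without TMM, 6 by DESeq2 and 1 with log2 total reads as a covariate, none of them a family member. The replicate block changed no call: IRF7 in PI against CI kept 1.61 with an SE of 0.70 (limma, Benjamini-Hochberg adjusted p = 0.811). For pregnant against cyclic the block joins pregnant and cyclic libraries of 1 number, so that SE rests on a match the labels do not give. Of 435 differences recomputed under settings other than left-out libraries 21 changed sign, and the cause was not tested. With the leukocyte score as a covariate these were IRF4 in PI against CI (−0.20), IRF3 and IRF8 in PC against CC (−0.019 and −0.24), IRF7 and IRF9 in PI against PC (0.073 and 0.019), IRF3 in CI against CC (−0.015) and the interaction of IRF5 (0.093). With log2 total reads they were IRF3 in PI against PC (−0.077) and the interactions of IRF3 (−0.15) and IRF5 (0.14). Without PI1, PI4 and CI3 they were IRF3 in PI against PC (−0.15), IRF3 and IRF4 in CI against CC (−0.12 and −0.032) and the interaction of IRF3 (−0.031). On CPM without TMM they were IRF3 in PI against PC (−0.0059) and in CI against CC (−0.068). DESeq2 turned IRF4 in PI against CI (−0.31) and IRF2 and IRF7 in PI against PC (0.015 and 0.022), edgeR IRF4 in PI against CI (−0.32), and a pseudocount of 2 CPM the same difference (−0.0046).

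Leaving out single libraries turned differences near 0. In PI against CI this was IRF4 (−0.18 to 0.62). In PI against PC the ranges were −0.30 to 0.13 for IRF1, −0.058 to 0.047 for IRF2, −0.084 to 0.15 for IRF3, −0.059 to 0.23 for IRF5, −0.68 to 0.58 for IRF7 and −0.45 to 0.30 for IRF9. In CI against CC they were −0.12 to 0.090 for IRF3, −0.24 to 0.56 for IRF4, −0.053 to 0.28 for IRF5 and −0.0026 to 0.34 for IRF9. For the interaction they were −0.089 to 0.17 for IRF3, −0.20 to 0.15 for IRF5, −1.16 to 0.093 for IRF7 and −0.64 to 0.11 for IRF9. The pregnancy differences of IRF7 and IRF9 kept their sign under each setting run.

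The r with IRF7 moved by more than its jackknife standard error over libraries with the leukocyte score regressed out for IRF1 (0.77), IRF4 (0.16), IRF5 (0.0083), IRF8 (0.24) and IRF9 (0.95). With group means subtracted it did so for IRF2 (0.46), IRF5 (0.49) and IRF9 (0.96), on CPM for IRF2 (0.35), and as Spearman's rho for IRF4 (0.63) and IRF9 (0.94). IRF4, at 1 to 36 reads, is limited by depth.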
